A study of Mus musculus with 6 samples.

Results

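Open chromatin was described at 9 genes that encode monocyte surface receptors known to bind platelets or platelet-derived ligands, Selplg, Cd44, Cd47, Sirpa, Pecam1, Cd40, Trem1, Jaml and F11r. The genes were chosen by the known function of their products, with earlier results of these data known, and are 9 of the 21883 protein-coding genes of the RefSeq mouse gene table that was used. A gene's locus was its GRCm38 gene body extended by 10 kb on each side, and every deposited peak that overlapped it was taken. The peaks of the 6 libraries at these loci merged into 102 of the 92757 regions of the series. The data are ATAC-seq peak lists, in which the Tn5 transposase marks accessible DNA, from monocytes of mouse blood prepared in aliquots of 50000 cells. The DTR group held 3 libraries from PF4cre-iDTR mice, in which Cre under the control of the promoter of the platelet chemokine gene Pf4 switches on a receptor for diphtheria toxin, and which the labels call thrombocytopenic. The WT group held 3 libraries from wild-type mice. Both groups received diphtheria toxin, so the toxin is shared and the transgenes are not. Pf4-driven Cre is known to act in megakaryocytes and also, in part, in other blood cells. The sources used here do not give age, sex, or how many mice went into a library, so the p-values measure only the spread between these libraries, which may be technical.

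Platelets bind monocytes mainly through P-selectin, which activated platelets bring to their surface and which is recognised by PSGL-1, the product of Selplg. CD44 is the receptor for hyaluronan and also binds selectins. CD47 is carried by nearly all cells, platelets included, and signals through SIRPα on myeloid cells, the product of Sirpa, to restrain phagocytosis. PECAM-1 and JAM-A, the product of F11r, are adhesion molecules of platelets, leukocytes and endothelial junctions that bind copies of themselves, and JAML is a leukocyte relative of the JAM family that binds the junction protein CAR. CD40 is the receptor for CD40 ligand, which activated platelets release, and TREM-1 is a receptor that amplifies inflammatory signals in monocytes and neutrophils and for which a ligand on platelets has been described.

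A promoter sequence was at hand for 5 of the 9 genes, Cd44, Cd47, F11r, Jaml and Trem1. Selplg, Sirpa, Pecam1 and Cd40 are described by their peaks alone. Each sequence runs from 250 bases before to 50 bases after the RefSeq start, on the strand of the gene, in GRCm38.p6. In all 5 genes the start base lay under a peak in 6 of 6 libraries. A peak spanned the whole window in 6 of 6 libraries at Cd47, Jaml and Trem1, in 2 at Cd44 and in 0 at F11r. The windows of 4 genes are shown because they differ widely in base composition while the start base lay under a peak in each. They lie at chr2:102901616-102901915 on the minus strand for Cd44, and on the plus strand at chr16:49855404-49855703 for Cd47, chr1:171437311-171437610 for F11r and chr9:45078933-45079232 for Jaml. Capitals mark the core GGAA, or TTCC on the other strand, of the motif read by ETS factors, the family of the myeloid regulator PU.1.
Cd44: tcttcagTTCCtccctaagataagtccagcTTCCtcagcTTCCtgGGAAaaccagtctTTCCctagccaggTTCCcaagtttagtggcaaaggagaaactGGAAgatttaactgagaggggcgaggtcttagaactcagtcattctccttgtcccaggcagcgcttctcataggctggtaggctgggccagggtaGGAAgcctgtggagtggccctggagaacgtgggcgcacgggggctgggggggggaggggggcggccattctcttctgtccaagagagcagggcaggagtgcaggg
Cd47: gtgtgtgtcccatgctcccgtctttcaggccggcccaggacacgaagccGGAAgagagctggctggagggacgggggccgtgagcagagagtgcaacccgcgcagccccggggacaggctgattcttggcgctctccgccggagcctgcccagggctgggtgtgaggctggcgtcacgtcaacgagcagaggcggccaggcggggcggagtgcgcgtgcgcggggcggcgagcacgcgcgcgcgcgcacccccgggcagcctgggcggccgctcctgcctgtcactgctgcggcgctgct
F11r: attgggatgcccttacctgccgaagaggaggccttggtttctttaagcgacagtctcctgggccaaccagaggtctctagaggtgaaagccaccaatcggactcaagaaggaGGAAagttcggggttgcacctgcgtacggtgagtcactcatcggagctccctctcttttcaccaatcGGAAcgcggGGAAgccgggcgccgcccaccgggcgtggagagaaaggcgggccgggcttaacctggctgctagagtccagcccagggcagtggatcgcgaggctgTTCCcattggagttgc
Jaml: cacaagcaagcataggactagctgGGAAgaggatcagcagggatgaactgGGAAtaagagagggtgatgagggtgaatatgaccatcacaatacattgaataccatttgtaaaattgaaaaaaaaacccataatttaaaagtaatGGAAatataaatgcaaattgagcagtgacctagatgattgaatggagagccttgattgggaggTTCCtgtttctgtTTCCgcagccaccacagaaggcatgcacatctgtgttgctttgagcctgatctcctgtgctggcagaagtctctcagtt
The GC content was 74.0% at Cd47, 60.3% at F11r, 58.0% at Cd44, 51.3% at Trem1 and 42.3% at Jaml, beside a median of 56.3% over 17491 promoters of protein-coding genes. Cd47 held 35 CpG dinucleotides in its 300 bases and Jaml held 1. The ETS core occurred 8 times at Cd44, 5 times at Jaml, 4 times each at F11r and Trem1, and 1 time at Cd47, and 95.7% of all promoters held it at least once. The longer PU.1 motif GAGGAAG, which contains that core, was found at Cd44 alone among the 5, upstream of the start, and 13.5% of promoters held it. Cd47 held CCGCCC, a motif of SP and KLF factors, 3 times, and F11r and Cd44 held it 1 time each (46.3% of promoters). F11r held TGANTCA, the AP-1 motif, before its start (7.08% of promoters), and CCAAT 4 times (39.0%). Jaml held TATAAA (13.3%), a match to the IRF motif of interferon regulatory factors (3.4%), TGTGGT, read by RUNX factors (15.1%), and 1 CCAAT. The NF-kB motif occurred 1 time each at F11r and Jaml (22.5%), and TTGCNNAA, read by C/EBP factors, occurred in none of the 5 (10.1%). Both strands were searched, and a match is a description of the letters and not a bound site.

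The lists held 84029, 81567 and 81579 peaks in the DTR libraries, against 78162, 77867 and 80475 in the WT libraries, and covered 48.1 to 50.1 Mb in DTR and 43.8 to 47.7 Mb in WT. The files give no read counts, which leaves sequencing depth unknown, and a site may lack a peak for want of reads. In bulk cells, the share of cells in which a site is open and how open it is in each cell cannot be told apart. All 10 monocyte marker genes checked had a peak in every library. Of the megakaryocyte and platelet markers 7 of 10 did, while Ppbp, Gp1bb and Treml1 had no peak in any library. A peak in every library was also found at 5 of 8 markers of T or NK cells and 5 of 5 B cell markers. The same held for 2 of 7 neutrophil, 3 of 5 erythroid and 2 of 5 endothelial markers. The summed widths at monocyte markers were 45.6 to 46.4 kb in DTR and 39.9 to 45.2 kb in WT, and at megakaryocyte and platelet markers 7.86 to 9.47 kb in DTR and 7.55 to 7.75 kb in WT. At Xist, the RNA gene of the inactive X chromosome, DTR libraries listed 5, 3 and 4 peaks, and each WT library listed 1. The Xist difference follows the group line and sex is not given, so a difference in sex cannot be told apart from genotype or thrombocytopenia. The part of the marker and Xist differences in the results was not tested.

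All 9 receptor loci were open in both groups, and none was open in one group alone. Measured per length, Selplg had the densest open chromatin and Cd47 the least. Over the 6 libraries, peaks covered 14.5% of the Selplg locus (range 13.3% to 15.5%), which is above 95.0% of the 16827 gene loci with a peak in any library. Jaml followed with 12% and F11r with 11.5%, and Sirpa, Cd40, Pecam1 and Cd44 lay between 10.6% and 10.2%. Trem1 had 8.70%, and Cd47 had 6.0% (range 5.38% to 6.50%). From Jaml down to Cd44 the ranges of neighbours overlapped, so their order is not separated beyond the spread of the libraries. Selplg stood above all others, by a narrow margin over Jaml, and Trem1 and then Cd47 stood below. The Selplg locus also holds Coro1c, the Jaml locus Mpzl3 and Scn2b, and the Trem1 locus Trem3, so part of the open chromatin there lies in neighbouring genes.

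**Figure D1:**
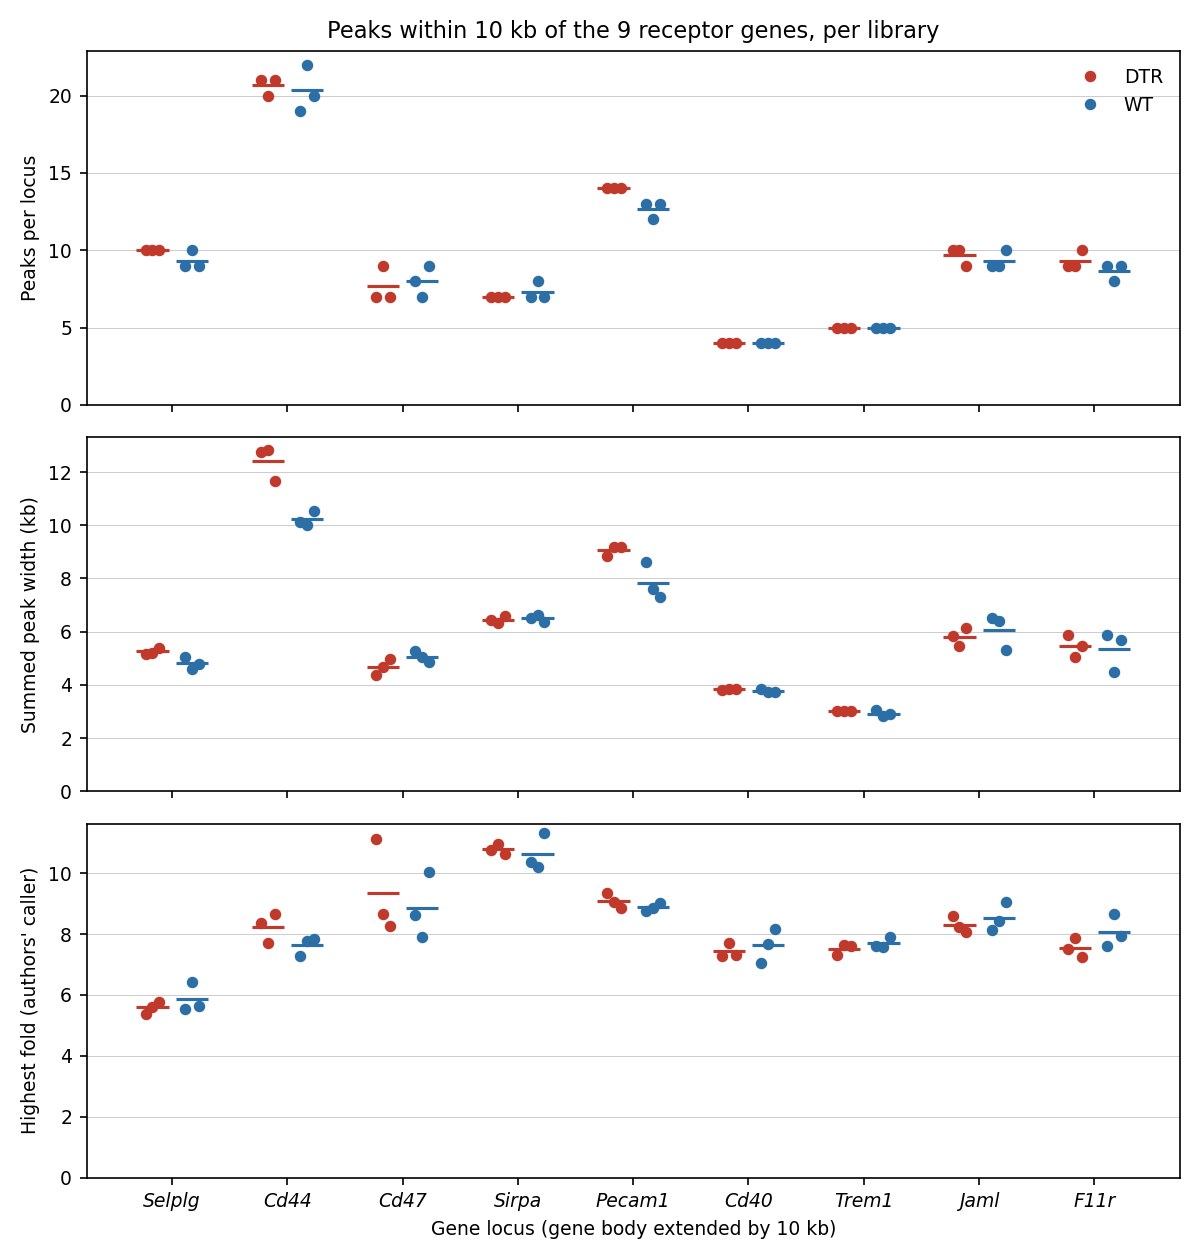
Peak number, summed peak width in kb and highest fold enrichment at each of the 9 receptor loci, in DTR and WT libraries. Each point is 1 library and each line a group mean of 3. DTR lies above WT without overlap in the summed width of Selplg, Cd44 and Pecam1 and in the peak number of Pecam1, and the groups overlap at the other loci and measures.

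Between the groups, the summed width of peaks separated at 3 loci, Cd44, Pecam1 and Selplg, all 3 higher in every DTR library than in any WT library. Of the 16827 loci, summed width separated at 20.3%, with DTR above at 19.5% and below at 0.844%. The 3 of 9 is therefore to be read beside a general tendency to more length under peaks in DTR. The median width of a single peak overlapped, with 482, 477 and 497 bp in the DTR libraries and 496, 453 and 472 bp in WT. Among the 7877 loci with a mean of at least 4 peaks, which holds all 9 receptors, the share with DTR above was 22.3%. The median difference over those loci was 5.69%, against 1.75% over the 9 receptors, and the DTR mean was the higher at 85.9% of the loci and at 6 of the 9 receptors. The number of peaks separated at Pecam1 alone (1 of 9, beside 3.33% of loci, 2.98% with DTR above and 0.345% below). The highest fold enrichment of a locus, which is the caller's ratio of signal over local background and the authors' own value, separated at 0 of 9 (12.3% of loci, 7.71% above and 4.57% below). With 3 libraries against 3, the smallest p of the exact permutation test is 0.1, so no locus could pass 0.05.

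When each width was scaled to the total length that the library's peaks cover, an alternative chosen after seeing the data, the median log2 difference over the 7877 loci moved to -0.02, against 0.08 unscaled. Cd44 then remained the only receptor with DTR above WT, while Cd47, Sirpa and Cd40 had DTR below WT in every library. That made 1 of 9 above, beside 5.06% of loci, and 3 of 9 below, beside 14.6%, or 19.7% of loci in either direction. The scaled differences were 12.9% at Cd44, 7.58% at Pecam1 and 1.58% at Selplg. They were -3.73% at Trem1, -5.19% at F11r, -5.42% at Cd40, -7.79% at Sirpa, -11.4% at Jaml and -14.3% at Cd47. The scaled median was -5.19% over the 9 receptors, against -1.71% over the 7877 loci. The DTR mean was the lower at 6 of the 9 and at 60.8% of those loci. The direction at Cd40, Trem1 and F11r is therefore set by the scaling.

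Among the selectin and hyaluronan receptors, Selplg had 5173, 5218 and 5390 bp under peaks in the DTR libraries, against 5065, 4605 and 4783 bp in the WT libraries. The groups did not overlap, but the lowest DTR and the highest WT library were close. The means were 5260 ± 115 bp in DTR and 4818 ± 232 bp in WT (SD, n = 3 each), a difference of 9.19%, or 443 bp (two-sided exact permutation p = 0.1). With the gene extended by 2 kb the difference was 180 bp, and for the gene body alone it was 167 bp (exact permutation p = 0.1 for each). Every DTR library had 10 peaks, against 9, 10 and 9 in WT. The highest fold overlapped, with 5.38, 5.61 and 5.78 in DTR and 5.55, 6.42 and 5.63 in WT. A region inside the gene body (chromosome 5, 113824383 to 113824579) had a peak in 3 of 3 DTR libraries, with folds of 3.09, 3.41 and 3.0, and in WT only in library 2, with 2.63. Of all regions, 4.37% had peaks in at least 2 more DTR than WT libraries.

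Within Selplg, folds of the 9 regions shared by all libraries moved in both directions. At 113812140 to 113812930 they were 4.43, 5.0 and 4.95 in DTR and 4.17, 3.65 and 4.32 in WT. At 113828065 to 113828761 they were 4.07, 4.05 and 4.17 in DTR and 3.71, 3.70 and 3.74 in WT. At 113834993 to 113835577 they were 3.58, 3.60 and 3.64 in DTR, against 3.68, 4.07 and 3.71 in WT. The groups did not overlap at any of these 3, with DTR above at the first 2 and below at the last. Taken relative to the library medians, their log2 differences had adjusted p-values of 0.441, 0.540 and 0.587 (limma over 68712 shared regions, Benjamini-Hochberg). At 113840472 to 113841043, outside the gene body, peaks were longer in DTR, with 385, 552 and 551 bp, against 364, 266 and 335 bp in WT (log2 difference 0.54, limma adjusted p = 0.647). The region with the highest fold lay at 113810051 to 113810525 and the widest at 113841675 to 113842520, inside the neighbouring gene Coro1c.

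Cd44 had the largest relative difference in unscaled width of the 9 loci, while after scaling to the total covered length the difference at Cd47 was larger. Its peaks covered 12763, 12810 and 11645 bp in the DTR libraries, against 10107, 10007 and 10544 bp in the WT libraries. Every DTR library was above every WT library. The means were 12406 ± 659 bp in DTR and 10219 ± 286 bp in WT (SD, n = 3 each), a difference of 21.4% (exact permutation p = 0.1). The number of peaks overlapped, with 21, 20 and 21 in DTR and 19, 22 and 20 in WT, and so did the highest fold, with 8.38, 7.69 and 8.67 in DTR and 7.29, 7.79 and 7.85 in WT.

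Within the locus, 1 region of 2636 bp in the gene body stood out, 50.4 kb from the start (chromosome 2, 102849930 to 102852565). Peaks covered 1914, 2460 and 1766 bp of it in the DTR libraries, against 483, 461 and 882 bp in the WT libraries. The groups were far apart, with means of 2047 ± 366 bp in DTR and 609 ± 237 bp in WT (SD, n = 3 each), which is 3.36-fold higher in DTR. Relative to the library medians the log2 difference was 1.72 ± 0.28 (SE), with an unadjusted p of 0.000992 and an adjusted p of 0.218 (limma), so it did not pass the threshold of 0.05. Without WT library 3 the log2 difference was 2.02, with an adjusted p of 0.0488 (limma). Without DTR library 2 the merged region was shorter (102850978 to 102852565), and its log2 difference was 2.21 ± 0.80 (SE), with an adjusted p of 0.683 (limma). The fold of the region did not separate, with 3.76, 2.93 and 3.29 in DTR and 3.58, 3.20 and 3.89 in WT. DTR library 2 had a single peak there, DTR libraries 1 and 3 had 2, and the WT libraries had 2, 2 and 1. The width difference of the whole locus was 549 bp at a q of at most 1e-05 (exact permutation p = 0.5) and to 6.67 bp with lists cut to equal length (exact permutation p = 1), against 2187 bp with the full lists. Cutting the lists to equal length also made the mean peak number at Cd44 lower in DTR by 5 peaks (DTR minus WT -5), while the region of 2636 bp kept a log2 difference of 1.52 ± 0.33 (SE, limma adjusted p = 0.427).

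**Figure D2:**
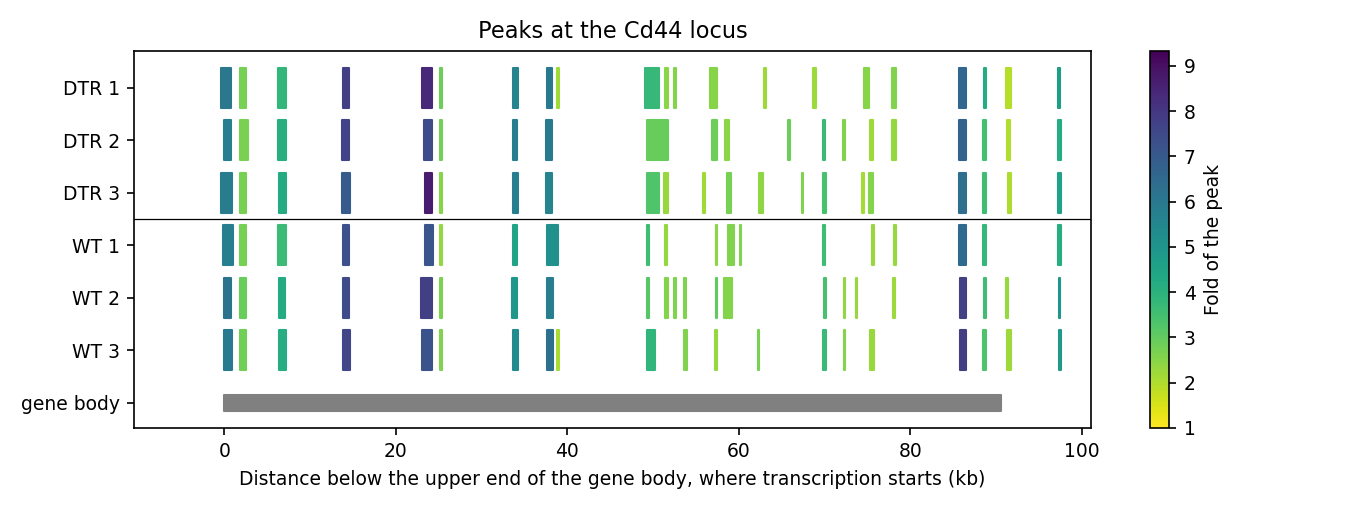
Peaks at the Cd44 locus by library, with distance in kb below the upper end of the gene body, where transcription starts, on the horizontal axis and 1 row per library. Bars are peaks, coloured by fold, and the grey bar is the gene body. Near 50.4 kb the peaks are long in DTR (1766 to 2460 bp covered) and short in WT (461 to 882 bp).

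Of the 12 Cd44 regions shared by all libraries, 1 separated by fold. The region over the start (102900688 to 102902065), which holds the promoter printed above, had folds of 6.02, 5.84 and 5.91 in DTR and 5.81, 6.16 and 5.92 in WT. At the region of highest fold (102877379 to 102878739), values were 8.38, 7.43 and 8.67 in DTR and 7.18, 7.79 and 7.22 in WT, which overlapped. At 102867460 to 102868058, DTR was above WT, with folds of 5.58, 5.85 and 5.81 in DTR and 4.5, 4.91 and 5.34 in WT (log2 difference 0.20 ± 0.07 SE, limma adjusted p = 0.410). Cd44 also had the least stable peak set of the 9, with 12 of its 30 regions shared by all libraries, against 74.1% of all regions. One of the unshared regions (102847749 to 102848102) had peaks in 2 WT and 0 DTR libraries, an imbalance found at 1.02% of all regions.

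In the CD47 and SIRPα pair no unscaled width separated, while scaled to the total covered length both genes were lower in every DTR library. Cd47 had 4368, 4673 and 4965 bp in the DTR libraries, against 5277, 5064 and 4858 bp in the WT libraries. The DTR values were lower on average and overlapped WT, with a difference of -7.85% (exact permutation p = 0.2). Peak numbers were 7, 9 and 7 in DTR and 8, 7 and 9 in WT. Its promoter region (chromosome 16, 49854839 to 49856140) was nearly the same in all libraries, with folds of 5.96, 5.87 and 5.99 in DTR and 6.07, 5.90 and 6.0 in WT. It covered 1302, 1268 and 1283 bp in DTR and 1242, 1276 and 1260 bp in WT.

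The distal regions of Cd47 varied more. The one with the highest mean fold (49907168 to 49907652) had 11.12, 8.12 and 7.75 in DTR and 7.29, 7.90 and 10.04 in WT, so the spread lay within the groups. At 49887819 to 49888656, DTR had folds of 4.80, 5.97 and 4.63, against 6.22, 6.65 and 5.92 in WT. These overlapped only through DTR library 2, and the log2 difference of -0.32 ± 0.10 (SE) had an adjusted p of 0.352 (limma). A region at 49915680 to 49915864 had peaks in 2 WT and 0 DTR libraries.

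Sirpa had the smallest relative difference in unscaled width of the 9 loci, and after scaling it was -7.79%. Its summed width was 6456, 6339 and 6579 bp in DTR and 6519, 6636 and 6357 bp in WT, a difference of -0.707% (exact permutation p = 0.7). It had 7 peaks in every library except WT library 2, which had 8. The widest Sirpa region (chromosome 2, 129592013 to 129594114) covered 2087, 2087 and 2101 bp in DTR and 2102, 2086 and 2090 bp in WT, which is above 99.0% of shared regions in covered length. The strongest (129632990 to 129633791) had folds of 10.75, 10.97 and 10.62 in DTR and 10.35, 10.19 and 11.33 in WT. No other region at the 9 receptors had so high a mean fold. One region separated by fold, at 129625969 to 129626273, with 6.67, 6.81 and 6.54 in DTR and 5.08, 6.07 and 6.08 in WT. Its log2 difference was 0.19, with an adjusted p of 0.436 (limma).

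Pecam1 separated in both the number and the width of its peaks. It had 14 peaks in every DTR library, against 13, 12 and 13 in the WT libraries (exact permutation p = 0.1). The numbers overlapped at a q of at most 1e-05 (difference 1 peak, exact permutation p = 0.4), where Selplg separated in place of Pecam1, and with lists cut to equal length (0.33 peaks, exact permutation p = 1). The summed width was 8840, 9201 and 9169 bp in DTR and 8637, 7591 and 7314 bp in WT. Means were 9070 ± 200 bp in DTR and 7847 ± 698 bp in WT (SD, n = 3 each), a difference of 15.6% (exact permutation p = 0.1), and WT library 1 lay close to the DTR values. With lists cut to equal length the width difference was 879 bp (exact permutation p = 0.3), against 1223 bp, and the groups overlapped. Pecam1 is also a gene of platelets and endothelial cells. The 5 endothelial markers had 3.23 to 3.55 kb under peaks in DTR and 2.27 to 3.20 kb in WT, with no peak in any library at Tek, Tie1 and Emcn, and their part in the result was not tested.

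The Pecam1 region with the clearest fold difference lay 1307 bp outside the gene body at its upper coordinate end (chromosome 11, 106716588 to 106717183). Folds were 7.19, 6.29 and 6.56 in the DTR libraries, against 5.18, 4.90 and 5.72 in the WT libraries. Every DTR value was above every WT value, and the mean was 6.68 ± 0.47 in DTR and 5.26 ± 0.42 in WT (SD, n = 3 each). Relative to the library medians the log2 difference was 0.31 ± 0.08 (SE), with an unadjusted p of 0.00560 and an adjusted p of 0.290, the lowest for fold at the 9 receptors (limma). The covered length there did not differ in the same way, with a log2 difference of -0.04. A weaker region in the gene body (106683283 to 106683526) was also above in DTR, with 3.76, 3.85 and 3.80, against 2.30, 3.30 and 3.57 in WT (limma adjusted p = 0.491).

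By fold, other Pecam1 regions ran the other way. At 106659332 to 106661111, folds were 6.01, 5.56 and 5.46 in DTR and 6.16, 6.16 and 6.83 in WT, while the covered length was 1730, 1780 and 1712 bp in DTR and 1766, 679 and 1123 bp in WT. At 106669798 to 106670062, folds were 5.05, 5.07 and 4.75 in DTR and 5.34, 5.77 and 5.45 in WT. Both folds were lower in every DTR library (limma adjusted p = 0.378 for each). How a fold depends on the length of its called peak was not tested. The added peak of the DTR libraries included a region at 106666806 to 106666988, listed in 3 DTR libraries with folds of 3.83, 3.74 and 3.31 and in WT library 3 alone with 3.44. A region over the upper end of the gene body (106715127 to 106715290) was listed in DTR library 1 alone. The strongest region (106648230 to 106648949) had 9.34, 9.06 and 8.86 in DTR and 8.65, 8.86 and 8.67 in WT, which overlapped.

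**Figure D3:**
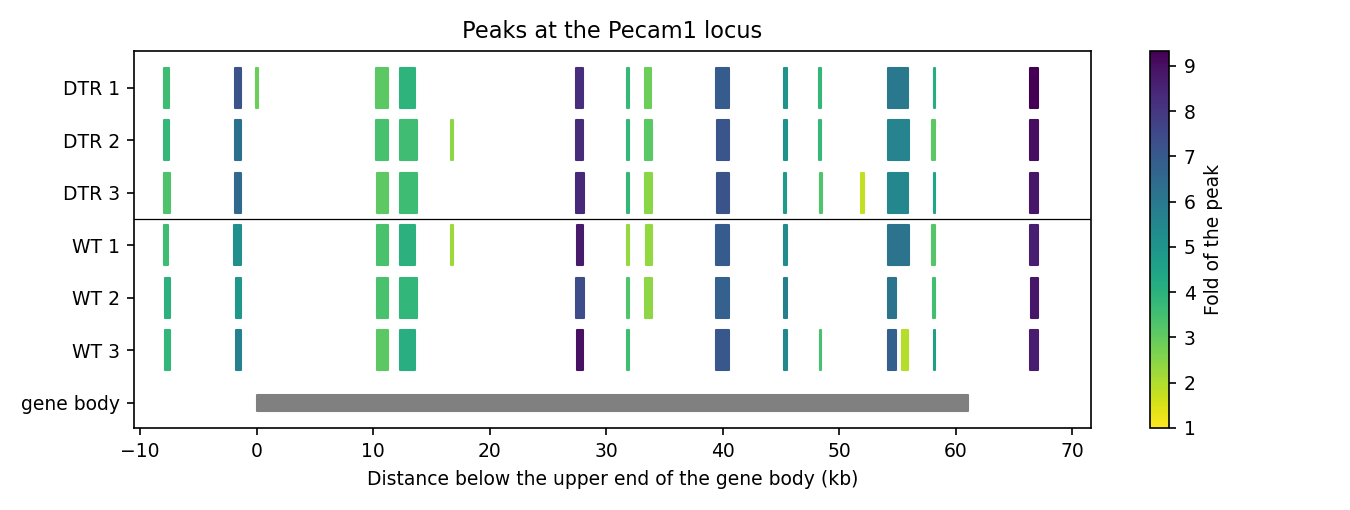
Peaks at the Pecam1 locus by library, with distance in kb below the upper end of the gene body on the horizontal axis and 1 row per library. Bars are peaks, coloured by fold, and the grey bar is the gene body. Each DTR library has 14 peaks and each WT library 12 or 13.

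By peak number, summed width and highest fold, the JAM family members did not separate by locus. The widest F11r peak was longer in every DTR library, with 924, 910 and 938 bp, against 896, 852 and 902 bp in WT (exact permutation p = 0.1). At Cd44 and Cd40 the widest peak separated in the same direction. The share of all loci that separate by this measure was not computed. Jaml had 5824, 5452 and 6128 bp under peaks in DTR and 6529, 6407 and 5297 bp in WT (difference -4.55%, exact permutation p = 0.6). F11r had 5870, 5032 and 5452 bp in DTR and 5888, 4498 and 5689 bp in WT (1.74%, exact permutation p = 0.9). In both genes the libraries of 1 group differed more from each other than the groups did. The Jaml promoter region (chromosome 9, 45077469 to 45079625) covered 1574, 1150 and 2079 bp in DTR and 2074, 2032 and 1147 bp in WT, in 1 or 2 peaks depending on the library.

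Folds separated at 4 shared regions of the JAM family genes, with DTR below at 3 and above at 1. At 45086269 to 45086851 in Jaml they were 7.42, 7.73 and 7.56 in DTR, against 7.81, 8.43 and 9.05 in WT (log2 difference -0.18, limma adjusted p = 0.368). At 45116539 to 45117213 they were 5.39, 5.04 and 5.42 in DTR and 5.47, 5.71 and 5.83 in WT. In F11r, the region at chromosome 1, 171450804 to 171451630 had 6.78, 6.53 and 6.64 in DTR and 7.18, 7.86 and 7.25 in WT (log2 difference -0.19, limma adjusted p = 0.355). A weak F11r region, at 171452693 to 171453269, was higher in DTR, with 3.47, 3.72 and 3.59, against 2.64, 3.26 and 3.09 in WT (0.24, adjusted p = 0.398). The highest mean fold lay at 45095094 to 45095815 for Jaml and at 171457686 to 171457881 for F11r, and the greatest mean covered length of an F11r region at 171466113 to 171467042. The F11r promoter region (171437377 to 171437892) was weak, with a mean fold above 7.35% of shared regions and values of 3.07, 3.30 and 2.75 in DTR and 2.71, 3.58 and 3.02 in WT. It covered 484, 471 and 502 bp in DTR and 463, 420 and 411 bp in WT, longer in every DTR library (limma adjusted p = 0.667). At 45112805 to 45113771 in Jaml the covered length was 519, 521 and 347 bp in DTR and 755, 745 and 539 bp in WT, with a log2 difference of -0.64 ± 0.23 (SE) and an adjusted p of 0.647 (limma).

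The signalling receptors CD40 and TREM-1 had small and stable peak sets. Cd40 had 4 peaks and Trem1 had 5 in each of the 6 libraries, and all of these regions were shared. Cd40 covered 3805, 3865 and 3850 bp in DTR and 3836, 3750 and 3736 bp in WT (1.75%, exact permutation p = 0.2). Trem1 covered 3036, 3029 and 3020 bp in DTR and 3046, 2815 and 2918 bp in WT (3.49%, exact permutation p = 0.4). At the end of Cd40 with the lower coordinates (chromosome 2, 165055008 to 165056621), the covered length was 1565, 1594 and 1574 bp in DTR and 1536, 1542 and 1518 bp in WT. All DTR values were above the WT values by a narrow margin, and the difference turned to -0.04 on the log2 scale relative to the library medians. Folds there were 5.49, 5.75 and 6.07 in DTR and 5.56, 5.58 and 5.75 in WT. Of the 4 Cd40 regions, the strongest lay at 165074532 to 165075240. The Trem1 promoter region (chromosome 17, 48232407 to 48232936) had folds of 4.55, 4.49 and 4.10 in DTR and 4.17, 5.21 and 4.67 in WT. Trem1's strongest and widest region (48247072 to 48248089) lay 145 bp outside the gene body, inside Trem3, with 7.31, 7.64 and 7.62 in DTR and 7.61, 7.58 and 7.89 in WT.

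Over all 9 receptors, 72 of 102 regions (70.6%) had a peak in all 6 libraries, against 74.1% of all regions of the series. The median fold was 4.86 in these and 2.56 in the other 30, so the regions that came and went were weak. None was present in all DTR and no WT library (0.82% of all regions), or the reverse. A single library held 14 regions (8.11% of all regions), 10 of them in DTR and 4 in WT. The shares of all regions for the reverse, and for single-library regions by group, were not computed. By fold, 13 of the 72 shared regions (18.1%) did not overlap between groups, 7 with DTR above and 6 below, beside 15.6% of all 68712 shared regions, of which 10.4% were above and 5.15% below. By covered length, 10 (13.9%) did not overlap, 8 above and 2 below, beside 14.8%, with 13% above and 1.87% below. Divided by the library medians, folds were above at 7 and below at 17 regions, beside 6.78% and 11.2% of all (18.0% in either direction), and covered lengths were above at 3 and below at 13, beside 4.21% and 13.5% (17.7% in either direction).

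No region at the 9 receptors passed an adjusted p of 0.05 in limma, by fold or by covered length. By fold, 12 of 72 (16.7%) had an unadjusted p under 0.05, beside 11% of all shared regions, of which 0 (0.0%) passed the adjusted threshold. By covered length, 4 of 72 (5.56%) had an unadjusted p under 0.05, beside 6.5% of all, of which 114 (0.166%) passed the adjusted threshold. The median log2 difference of the 72 was -0.06 by fold and -0.04 by covered length, beside -0.02 and -0.04 over all shared regions.

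**Figure D4:**
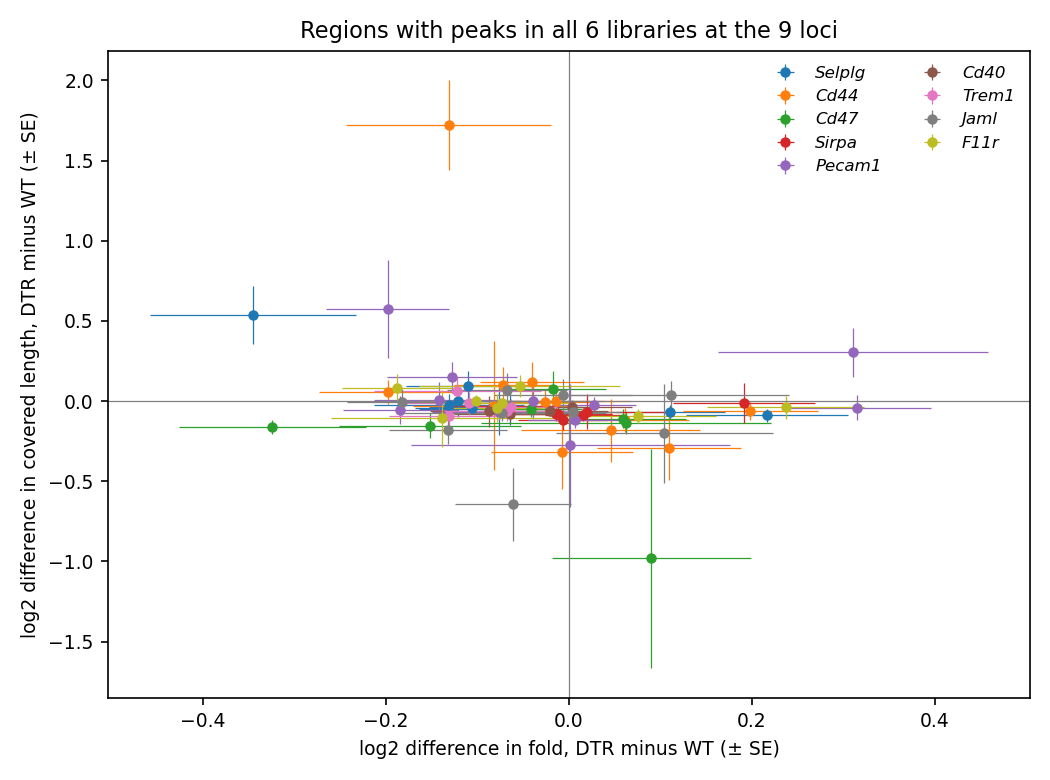
Log2 difference of DTR minus WT in fold (horizontal axis) and in covered length (vertical axis) at the 72 shared regions, relative to the library medians. Each point is 1 region, coloured by gene, and bars are standard errors. Most points lie near 0, and the Cd44 region of 2636 bp stands apart in covered length, at 1.72 ± 0.28.

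The summed width was also taken at genes that act with these receptors. Among 22 ligands and counter-receptors, 21 had a peak in any library, and it was above WT in every DTR library at 6, below at 0 and overlapping at 16, with a median log2 difference of 0.17. Among 11 genes that take part in building the selectin-binding form of PSGL-1, most of them enzymes, it was above at 2, below at 0 and overlapping at 9. The median there was 0.07. Among 28 adaptors and signalling partners it was above at 4, below at 0 and overlapping at 24, with a median of 0.09. The 3 counts stand beside 19.5% of all loci with DTR above. Scaled to the total covered length they were 4 above and 1 below, 0 above and 2 below, and 1 above and 5 below, beside 5.06% of all loci above and 14.6% below.

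Of the ligand list, Has2, a hyaluronan synthase gene, had 666, 684 and 649 bp under peaks in the DTR libraries and no peak in any WT library. They came from 1 region 992 bp from the gene body (chromosome 15, 56695538 to 56696257), with folds of 3.50, 2.93 and 3.21. Thbs1, which encodes the CD47 ligand thrombospondin-1, had 5344, 8015 and 7321 bp in DTR and 4814, 4323 and 5328 bp in WT, a difference of 43.0%, and DTR library 1 lay just above the highest WT library. Itgal, the alpha chain of the integrin LFA-1, had 6208, 6974 and 7133 bp in DTR and 5848, 4311 and 4293 bp in WT (40.6%). Has2 and Itgal remained above after scaling to the total covered length, and Thbs1 overlapped.

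Of the PSGL-1 list, B4galt1, a galactosyltransferase gene, had 7633, 7121 and 7441 bp in DTR and 6973, 6897 and 6985 bp in WT (6.43%). Tpst2, which sulphates tyrosines, had 9274, 9250 and 9250 bp in DTR and 8956, 8480 and 9229 bp in WT (4.16%). Both overlapped after scaling. Of the partners, Birc2, an inhibitor of apoptosis that acts with CD40 and its TRAF adaptors, had 3520, 4013 and 3966 bp in DTR and 2747, 2667 and 2851 bp in WT (39.1%), and remained above after scaling. Ptpn11, the gene of the phosphatase SHP-2 that binds PECAM-1 and SIRPα, had 4441, 4257 and 3895 bp in DTR and 3404, 3108 and 3872 bp in WT (21.3%). Pard3, a polarity protein gene whose product binds JAM-A, had 8080, 6606 and 6644 bp in DTR and 6315, 5887 and 5713 bp in WT (19.1%). These 2 overlapped after scaling. Among the 595 regions at the loci of the 3 lists, 5 were present in all DTR and no WT library, beside 0.82% of all regions. These lay at Has2, Itgal, Jam2, Plcg2 and Lyn. At Src, 1 region was the reverse, for which the share of all regions was not computed.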

How the data were processed

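ATAC-seq peaks of 6 libraries were analysed, 3 DTR and 3 WT, grouped by the sample titles. The submitters' processing notes name Bowtie2 2.4.4 and, without a version, fastp, Bowtie and MACS2. Parameters, genome build and any shift for the transposase offset: not given in the sources used here. Libraries were sequenced in pairs, per the labels' protocols. The authors deposited a separate broad-peak list for each library, called on that library alone. The deposited values are a fold (signal as a ratio to local background), the −log10 of the p-value and q-value, and a score, which lay within 1 of 10 times the −log10 q. The lowest deposited −log10 q of a library was 1.01 to 1.03. The lists hold no read counts, which leaves depth unknown, so intervals based on counts are not given.

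Peak coordinates are as deposited, counted from 1. Gene bodies came from RefSeq GRCm38.p6, and promoter sequences are RefSeq GRCm38.p6. As a check of the build, 52.2% of protein-coding genes had a region shared by all libraries within 100 bp of an end, against 9.84% after moving the genes by 20 kb. The table has no exons, so exonic and intronic positions are not given. Per locus and library, the number, summed width, highest fold and widest peak were taken with an overlap of at least 1 bp, and groups were compared by a two-sided exact permutation test. Overlapping or touching peaks were merged over the libraries. At the 68712 regions with a peak in all 6, log2 highest fold and log2 covered length were centred on the library median and tested with limma 3.58.1 (trended variance, Benjamini-Hochberg over all shared regions, threshold 0.05) in R 4.3.3. Tables were made with Python 3.11.15 and pandas 2.3.3. The limma test was also run on simulated data built from the means and spreads of these regions, with 200 regions changed by 1 log2 unit. It recovered 83.0% of them by fold and 57.0% by covered length, with 7 and 11 false calls.

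The 9 genes, the partner lists and the markers (gene bodies extended by 1 kb) were chosen with earlier results of these data known. One marker gene of the megakaryocyte and platelet list is not reported here and was left out of its counts. Regions named were, per gene, those with the highest mean fold, the greatest covered length, at a known start or end, with peaks in at least 2 more libraries of 1 group, and up to 3 shared regions whose folds did not overlap. Up to 3 genes per list were named by relative difference among those whose widths did not overlap, and 1 further region each at Cd47 (49887819 to 49888656), Selplg (113840472 to 113841043) and Jaml (45112805 to 45113771) was chosen after its values were seen. The alternatives tried for the loci were lists of equal length, peaks with q up to 1e-05, other gene extensions and most of each peak inside the locus. A replicate block, folds over the library median, a scaling to total covered length and each library left out were also tried. For the shared regions, no centring, quantile normalization, a mean fold of at least 3 and a width-weighted mean fold were added.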

Additional observations from a re-analysis of the deposited data

How the results depend on the processing

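Counts of receptors whose groups did not overlap were 1 for peak number, 3 for summed width and 0 for highest fold. With lists cut to equal length they were 0 for number and 1 for width (Selplg), a setting that removes more peaks from the DTR lists by construction. The fold count was 1 with genes extended by 2 kb (Selplg, DTR below), 1 for the gene body alone (Sirpa) and 2 with folds divided by the library median (Trem1 and F11r, DTR below). Leaving out 1 library gave 1 to 2 receptors by number (2 without WT library 2), 3 to 5 by width (5 without WT library 1 and without WT library 3) and 0 to 2 by fold (2 without DTR library 2, and 1 without DTR library 3, WT library 1 or WT library 3). Fewer libraries separate more easily by construction, and elsewhere the cause was not tested. The shares of all loci that separate under these settings, or with the replicate block, were not computed. These counts of receptors therefore have no general rate beside them. Among the member regions limma called 0 by fold, and 0 to 1 by covered length, the 1 being the Cd44 region without WT library 3. Over all shared regions, 114 were called by covered length, against 45 to 310 with 1 library left out (45 without DTR library 3, 310 without WT library 1, 74 without DTR library 1) and 0 with the replicate block, and 2 were called by fold at a q of at most 1e-05. In log2 fold, libraries of the same number did not deviate together (correlations 0.00251, 0.0736 and -0.0316). Covered length was not checked in this way, so whether the numbers pair the libraries is not settled. With the block, the fold count was 1 (F11r, DTR below), the Cd44 region had an adjusted p of 0.589 (limma), and the other counts were within 1.5 times. At a q of at most 1e-05 the 1 gene by number was Selplg in place of Pecam1. Of 342 single-gene differences under the alternative settings, 32 turned their sign. None of these was at a gene and measure whose groups had separated with the full lists. The exact permutation p-values of 3 libraries against 3 cannot pass the threshold and say nothing of stability. Depth is unknown, which limits what weak or missing peaks can show.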
